A study of Mus musculus with 48 samples.

Results

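The comparison examined here is the effect of Setd1a deletion on the transcriptome of cultured adult neural stem cells (NSCs) while the demethylase LSD1 was inhibited. It rests on 8 of the 48 libraries of the series, the 4 KO + ORY and the 4 WT + ORY libraries of day 7, and covers 11952 of the 39017 genes in the day 7 count table, those that passed a filter on low counts. All cultures came from the dentate gyrus of Hopx-CreERT2::Setd1afl/fl::H2B-GFP mice aged 7 to 8 weeks and were held quiescent with BMP4 and FGF2, each at 20 ng/ml, so WT and KO cells carried the same floxed and transgenic alleles. WT cultures received a lentivirus encoding GFP and KO cultures one encoding Cre-GFP, with ORY-1001 (ORY), an LSD1 inhibitor, or the solvent DMSO given together with the virus, and each group had 4 libraries. Loss of Setd1a, viral Cre, the vector and recombination of the H2B-GFP reporter at Rosa26 therefore changed together and cannot be told apart in any KO against WT value. The paper states that the RNA-seq libraries of a group came from independent cultures. The labels do not say whether these cultures came from separate animals. Each p-value therefore reflects variation among these libraries alone, which may not include variation between animals.

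SETD1A is a methyltransferase that adds methyl groups to lysine 4 of histone H3 (H3K4), a mark of promoters and enhancers in use. LSD1, encoded by Kdm1a, removes mono- and dimethyl groups from the same lysine, so the enzymes act against each other on this mark. Neural stem cells of the adult dentate gyrus are radial glia-like cells that express many astrocytic genes and stay out of the cell cycle for long periods, and BMP signalling holds them in that state in culture. The question put by the comparison was which part of the KO effect is left when LSD1 is inhibited, and KO + DMSO against WT + DMSO, with no library in common, shows the KO effect without the inhibitor.

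The 16 day 7 libraries held between 4265876 and 20588555 counts on genes, and the 8 ORY libraries between 4265876 and 9937210. Sox2, Slc1a3, Nes and Gfap, which mark radial glia-like stem cells, were counted in every library, with a Sox2 level of 138 to 169 counts-per-million (CPM) in the ORY libraries. Sox10 (oligodendrocyte lineage), Rbfox3 (neurons), Aif1 (microglia), Cdh5 (endothelium), Col1a1 and Dcn (fibroblasts) had no count in any of the 16 libraries. Other markers were counted: by library Pdgfra (oligodendrocyte lineage) had 12 to 62 counts, Tubb3 (neurons) 24 to 115 and Pecam1 (endothelium) 0 to 17. The summed oligodendrocyte list was between 464 and 512 CPM in WT + ORY and between 567 and 635 CPM in KO + ORY. For the neuronal list the sums were 3960 to 5440 CPM and 4820 to 5750 CPM. Within the KO + ORY group the closest libraries were 1 with 2 and 3 with 4: chi-square per degree of freedom over genes was 2.69 and 2.84, against 4.04 to 5.49 for the other pairs. All these values were above sampling noise, and no library was treated as a repeat of another, but the count of calls and the leading list counts are also given with these pairs summed. In WT + DMSO the same pairs were also the closest, at 3.89 and 2.98 against 5.98 to 8.28 for the other pairs, and were not summed. In WT + ORY and KO + DMSO they were not the closest. WT + ORY libraries 1 and 4 were the farthest apart of any pair within a group, at 11.5.

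In the main fit, which had no term for replicate number, KO cells differed from WT cells in few transcripts under LSD1 inhibition. Compared with WT + ORY, 138 genes, or 1.15% of those tested, passed an adjusted p of 0.05 in KO + ORY (edgeR quasi-likelihood test, Benjamini-Hochberg adjustment), of which 67 (0.561%) were higher and 71 (0.594%) were lower. Under DMSO 4307 genes (36%) passed the same test, 2025 higher and 2282 lower. Among the 6476 genes whose average log2 CPM was 4 or more, the median size of the log2 fold change was 0.0996 under ORY and 0.244 under DMSO. The median SE was 0.1003 and 0.0992, but both came from 1 fit that pooled the spread of each gene over all day 7 groups. These SE values therefore cannot show whether libraries varied more under either treatment. The test of the difference between the KO effects, the interaction of genotype with ORY, was passed by 2138 genes (17.9%). An unadjusted p under 0.05 was reached by 1723 genes (14.4%) under ORY. The number of calls under ORY varied with the form of the analysis. It was 319 with DESeq2, 372 with correction for GC content and length and 820 with a replicate block. It was 140 with limma-voom, 115 with only these groups fitted and 110 with libraries thinned to the smallest.

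The changes under ORY were small. The median size of the log2 fold change over the 138 genes was 0.412, 34 genes changed by at least 1.5-fold, and 15 by at least 2-fold, 4 of them higher and 11 lower. Among the called genes whose average log2 CPM was 3 or more, the values ran from −1.08 (Lcn2) to 0.844 (Gpr155), and the other 16 called genes were below that level, where a fold rests on few counts. The 4 KO + ORY values lay wholly above or below the 4 WT + ORY values in 133 of the 138 genes, against 9.02% of all genes tested. The genes were called on these same libraries, so this count describes the calls and is no further support for them. At the edge of the threshold, Arl4a, Hspa2 and Lrp4 were just inside (adjusted p 0.0495, 0.0498 and 0.0498) and Kcnn2, Adam11 and Pla2g7 just outside (0.0510 each).

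The number of calls depended on single libraries. Without KO + ORY library 1, 2, 3 or 4 there were 70, 58, 84 and 83 calls, without WT + ORY library 2, 3 or 4 there were 71, 70 and 83, and without WT + ORY library 1 there were 223. With KO + ORY libraries 1 and 2 summed and 3 and 4 summed, 30 genes were called, all among the 138. No called gene changed its sign in any of these fits, 46 of the 138 were called whichever library was left out, and 25 were called in those fits and in each of 14 other forms of the analysis. Those 25 included Ncan, Gt(ROSA)26Sor, Pkm, Tpi1, Gfap, C3, Lcn2, Vcam1, Serpina3n, Clip4, Rgs4, Lix1, Adamts1, Prdx6 and mt-Rnr1. With libraries scaled by their totals alone, 38 genes were higher and 110 lower under ORY, and 1383 were higher and 3151 lower under DMSO, where this scaling moved the median of all genes from −0.02 to −0.12 on the log2 scale.

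**Figure D1:**
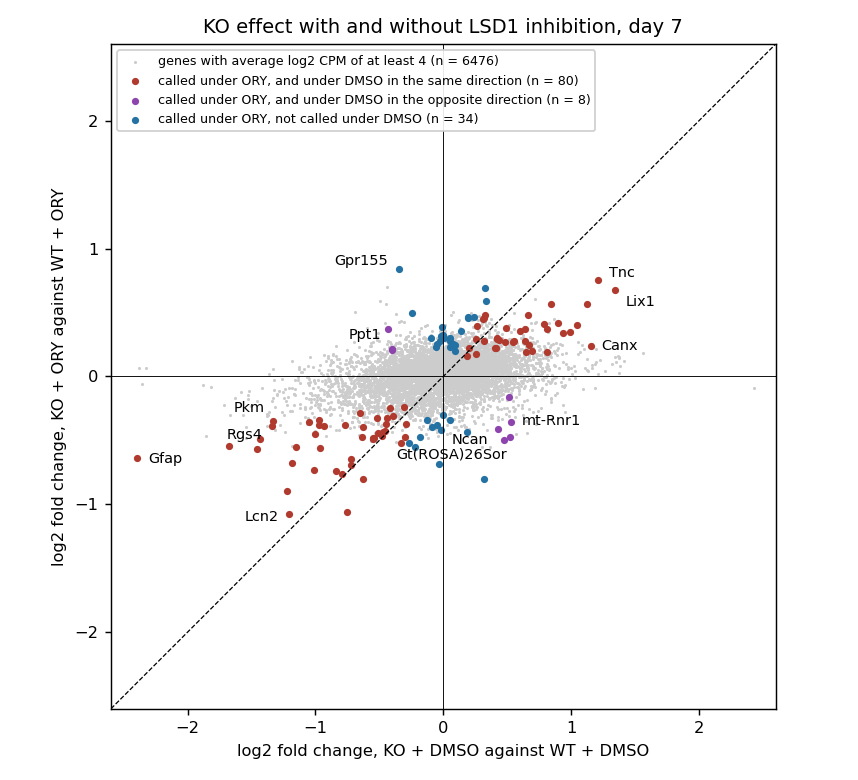
Log2 fold change of KO + ORY against WT + ORY (vertical axis) against that of KO + DMSO against WT + DMSO (horizontal axis), with 1 point per gene. Grey points are the 6476 genes whose average log2 CPM was 4 or more, coloured points are the 122 called genes at 3 or more, and the dashed line marks equal effects. Most of the 80 red points, called in both comparisons in the same direction, lie nearer to the horizontal axis than the dashed line does.

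Of the 138 genes, 86 (62.3%) were also called under DMSO in the same direction, which is 2% of the genes called under DMSO. Among the higher genes this was 39 of 67 (58.2%, against 16.9% of all genes called higher under DMSO), and among the lower genes 47 of 71 (66.2%, against 19.1%). The change was smaller under ORY than under DMSO in 70 of the 86, and in all 31 of the 86 that passed the interaction test it was smaller under ORY. A further 9 genes were called in opposite directions, and 43 were called under ORY and not under DMSO, 20 of which passed the interaction test. Read from the other side, the 2025 genes higher under DMSO had a median log2 fold change of 0.071 under ORY, with 69% above 0 (48.8% of all genes), and the 2282 lower genes had a median of −0.062, with 64.5% below 0 (51.2% of all genes).

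Gt(ROSA)26Sor, the noncoding transcript of the Rosa26 locus (chr6:113067428-113077333, GRCm38), which holds the H2B-GFP reporter, separated KO from WT libraries in every comparison. Its level was 1231, 1094, 1093 and 1066 CPM in WT + ORY and 839, 851, 792 and 758 CPM in KO + ORY. The groups did not overlap, and the fall of 0.47 ± 0.057 (SE) on the log2 scale (adjusted p = 7.3e-05) was matched by one of 0.48 ± 0.057 under DMSO, with no detectable interaction (0.01 ± 0.081, adjusted p = 0.956). Along 8.6% of its exonic length it overlaps Thumpd3 on the other strand, and the counts do not use strand.

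Setd1a itself (chr7:127776670-127800122) could not check the labels, because counts were made over the whole gene, of which Cre removes a part, and were close to the floor: 10 to 21 counts in WT + ORY and 17 to 29 in KO + ORY. Its level was 2.10, 2.27, 2.01 and 2.61 CPM in WT + ORY and 3.21, 2.92, 3.62 and 2.79 CPM in KO + ORY, groups that did not overlap but did not pass the test (0.46 ± 0.272, adjusted p = 0.453). Of its exonic length, 52.3% is shared with overlapping genes. Kdm1a, which encodes LSD1, was between 51.3 and 72.2 CPM in WT + ORY and between 64.9 and 68.3 CPM in KO + ORY, and the difference did not pass the test (0.10 ± 0.089, adjusted p = 0.661). None of the 30 tested genes of H3K4 methylation and of the LSD1 complex was called under ORY by edgeR, DESeq2 or limma-voom (2 at an unadjusted p under 0.05, both lower). Under DMSO 6 of the 30 were higher and 5 lower, shares near the 16.9% and 19.1% of all genes.

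Glycolytic enzymes formed the largest group of called genes among the 40 gene lists used here. Of 19 glycolysis genes tested, 6 fell (Pkm, Tpi1, Gapdh, Ldha, Aldoa and Pfkl) and none rose. Among all genes 0.594% fell and 0.561% rose under ORY. The list median was −0.17 against −0.01 for all genes. Under DMSO 13 of the 19 fell and 4 rose (of all genes 19.1% fell and 16.9% rose), with a median of −0.51. The summed level of the 19 was between 10018 and 11644 CPM in WT + ORY and between 9360 and 10815 CPM in KO + ORY, groups that overlapped. With the close KO + ORY libraries summed, 2 of the 19 were called. Pkm (chr9:59656368-59679375) encodes pyruvate kinase of the last step of glycolysis, Tpi1 triose phosphate isomerase, Gapdh the dehydrogenase of the next step, Aldoa the aldolase that splits fructose bisphosphate, Pfkl the liver form of phosphofructokinase, the committed step, and Ldha the lactate dehydrogenase subunit that favours lactate.

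The level of Pkm was 572, 570, 602 and 598 CPM in WT + ORY and 435, 434, 472 and 449 CPM in KO + ORY. The groups did not overlap and the level was 23.6% lower in KO (log2 fold change −0.39 ± 0.061, adjusted p = 0.00131). Under DMSO it was 302, 305, 336 and 355 CPM in WT and 116, 135, 125 and 136 CPM in KO, a fall of 1.34 ± 0.064 on the log2 scale. Every ORY library, KO included, thus lay above every DMSO library, and the KO effect was smaller under ORY by 0.95 ± 0.089 (interaction, adjusted p = 1.67e-08). Along 15.3% of its exonic length Pkm overlaps the predicted gene Gm49759.

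The level of Ldha was 869, 935, 977 and 997 CPM in WT + ORY and 709, 687, 830 and 755 CPM in KO + ORY, with no overlap (−0.34 ± 0.069, adjusted p = 0.0101). The fall under DMSO was 0.97 ± 0.070, and the effects differed (0.63 ± 0.098, adjusted p = 4.26e-05). Tpi1 was between 453 and 520 CPM in WT + ORY and between 344 and 423 CPM in KO + ORY (−0.39 ± 0.068, adjusted p = 0.00302, with a fall of 0.93 ± 0.069 under DMSO). Gapdh was between 306 and 357 CPM against 232 and 281 CPM (−0.38 ± 0.072, adjusted p = 0.00604, with a fall of 0.77 ± 0.073 under DMSO). Both passed the interaction test, at 0.54 ± 0.097 for Tpi1 and 0.39 ± 0.102 for Gapdh.

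Aldoa was between 1445 and 1907 CPM in WT + ORY and between 1228 and 1429 CPM in KO + ORY (−0.35 ± 0.078, adjusted p = 0.021, against a fall of 1.05 ± 0.080 under DMSO), and it stayed called in 3 of the 8 fits that left out a library. Pfkl was between 17.9 and 21.6 CPM against 10.8 and 14.8 CPM (−0.67 ± 0.162, adjusted p = 0.0347), and it stayed called in 1 of the 8. The other 13 genes of the list did not pass the test, among them Pgk1, with 196, 189, 218 and 195 CPM in WT + ORY and 176, 163, 188 and 172 CPM in KO + ORY. Its groups did not overlap, its log2 fold change was −0.19 ± 0.072 (adjusted p = 0.183), and the difference from the fall of 0.51 ± 0.072 under DMSO passed the interaction test (0.32 ± 0.101, adjusted p = 0.0285). The log2 fold changes under ORY were lower for genes richer in GC (Spearman −0.288 over 6455 genes, a description across genes), and with each library corrected for GC content and gene length all 6 enzymes stayed called. No member of the hypoxia response list was called by edgeR or limma-voom (0 of 23, with 1 higher and 8 lower at an unadjusted p under 0.05 and 2 lower by DESeq2), the median was −0.22, and 17 of the 23 log2 fold changes were below 0.

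**Figure D2:**
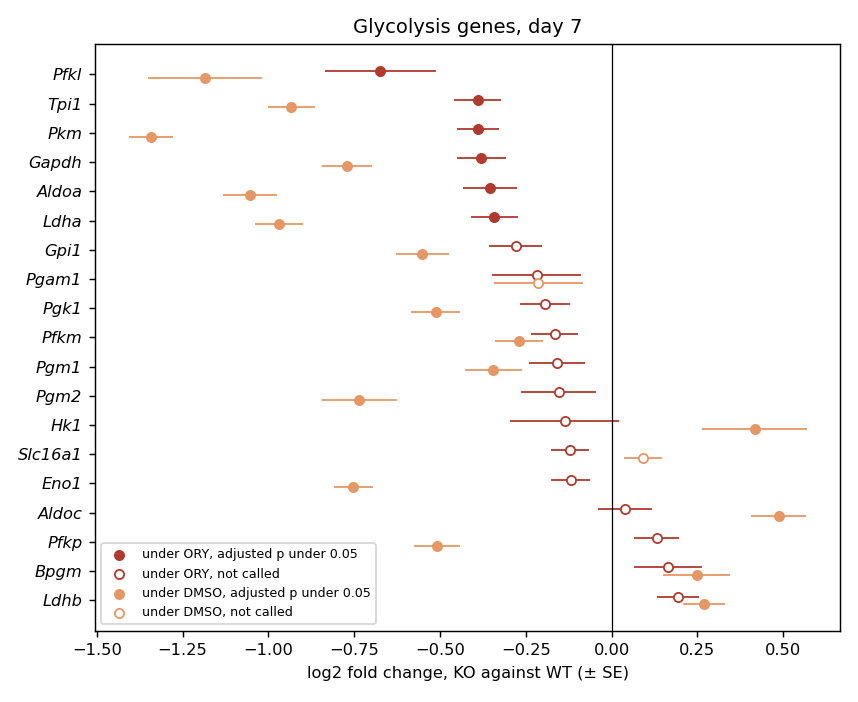
Log2 fold change of KO against WT (horizontal axis, whiskers ± SE) for the 19 glycolysis genes tested, under ORY (red) and under DMSO (orange). Filled points passed an adjusted p of 0.05, and the 6 genes called under ORY all have the orange point farther to the left.

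Promoter windows of RefSeq (250 bases before to 50 after the start, GRCm38.p6) were available for all 6 enzymes and are shown for those with the most matches to ACGTG or GCGTG, searched on both strands. These letters are the core of the element bound by hypoxia-inducible factors, long studied at glycolysis genes, and ACGTG is also part of the E-box CACGTG, which BHLHE40, a repressor encoded by a gene that the study followed, is known to bind. A match to ACGTG or GCGTG was present in 43.8% of the 32851 windows of that length and a match to CACGTG in 7.15%. Capitals mark the matches, and each sequence is written 5′ to 3′ on the strand of the gene.
Ldha, chr7:46845554-46845853, plus strand: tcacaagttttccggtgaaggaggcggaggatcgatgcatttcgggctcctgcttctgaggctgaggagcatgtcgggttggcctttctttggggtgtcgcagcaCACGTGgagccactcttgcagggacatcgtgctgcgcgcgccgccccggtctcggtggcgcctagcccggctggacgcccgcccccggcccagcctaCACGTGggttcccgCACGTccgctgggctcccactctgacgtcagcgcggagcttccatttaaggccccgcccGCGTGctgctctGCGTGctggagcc
Gapdh, chr6:125165724-125166023, minus strand: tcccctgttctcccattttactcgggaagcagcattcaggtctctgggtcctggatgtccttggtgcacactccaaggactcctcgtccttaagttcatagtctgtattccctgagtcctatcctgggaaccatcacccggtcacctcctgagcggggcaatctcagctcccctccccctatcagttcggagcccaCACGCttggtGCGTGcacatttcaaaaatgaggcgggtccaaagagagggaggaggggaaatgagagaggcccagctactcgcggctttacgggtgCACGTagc
Pkm, chr9:59656977-59657276, plus strand: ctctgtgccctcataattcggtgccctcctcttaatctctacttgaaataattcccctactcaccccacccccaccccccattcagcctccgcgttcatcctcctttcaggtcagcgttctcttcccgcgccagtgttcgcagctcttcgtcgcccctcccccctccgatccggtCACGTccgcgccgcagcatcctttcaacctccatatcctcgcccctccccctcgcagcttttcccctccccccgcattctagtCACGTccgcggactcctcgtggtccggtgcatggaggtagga
The Ldha window held 7 matches, overlapping ones counted apart, with CACGTG present at 2 places. The Gapdh window held 3 matches and the Pkm window 2, and neither held CACGTG. Each window shown is the one of its gene with the most matches, so its count cannot be set against the share of all windows. The other Pkm window (chr9:59656326-59656625), at an earlier start, had 0 matches, and the other Ldha window (chr7:46846832-46847131) had 2. Pfkl had 1 match, Aldoa 1 in each of the windows of its later starts and none in the first, and Tpi1 had none. Bhlhe40 was 171, 148, 163 and 128 CPM in WT + ORY and 138, 123, 123 and 115 CPM in KO + ORY, groups that overlapped, and did not pass the test (−0.29 ± 0.089, adjusted p = 0.106), whereas it fell by 0.88 ± 0.092 under DMSO (adjusted p = 2.5e-08) and the effects differed (0.59 ± 0.127, adjusted p = 0.00165).

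The next genes are known from astrocytes and inflammation and were picked out after their values were seen, so no count over them is given. Gfap is also in the list of neural stem cell genes. Gfap (chr11:102887336-102900912) encodes the intermediate filament of astrocytes and radial glia. Its level was 175, 207, 194 and 209 CPM in WT + ORY and 105, 131, 128 and 139 CPM in KO + ORY (−0.64 ± 0.099, adjusted p = 0.0011), with no overlap. Under DMSO it was 468, 509, 517 and 588 CPM in WT and 81.6, 109, 89.5 and 118 CPM in KO, a fall of 2.39 ± 0.101, and the interaction was 1.75 ± 0.139 (adjusted p = 9.51e-10). WT + ORY cells thus held less Gfap than WT + DMSO cells (by library, 175 to 209 against 468 to 588 CPM), and the KO groups overlapped.

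The Gfap window of RefSeq is shown because it holds TTCNNNGAA, the letters bound by STAT factors, which are known to act on Gfap in astrocytes. This motif, searched on both strands, was in 8.3% of all windows, and capitals mark the match.
Gfap, chr11:102897151-102897450, minus strand: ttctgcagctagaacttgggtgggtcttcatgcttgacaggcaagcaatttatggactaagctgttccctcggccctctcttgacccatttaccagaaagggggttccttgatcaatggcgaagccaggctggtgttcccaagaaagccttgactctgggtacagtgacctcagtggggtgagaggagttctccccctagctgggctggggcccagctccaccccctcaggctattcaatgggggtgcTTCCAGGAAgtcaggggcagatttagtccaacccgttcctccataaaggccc

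C3 (chr17:57203970-57228136), the central component of complement, was 50.2, 51.7, 52.8 and 52.4 CPM in WT + ORY and 29.1, 32.1, 27.8 and 38.1 CPM in KO + ORY (−0.70 ± 0.104, adjusted p = 0.000826), against a fall of 0.72 ± 0.107 under DMSO. Lcn2 (chr2:32384633-32388252), which encodes the secreted iron carrier lipocalin 2, was 17.4, 16.8, 18.3 and 16.3 CPM against 9.82, 7.65, 6.04 and 9.12 CPM (−1.08 ± 0.197, adjusted p = 0.00536), and fell by 1.20 ± 0.235 under DMSO. Neither gene had a detectable interaction (adjusted p = 0.933 and 0.818).

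Vcam1, a cell adhesion molecule known to hold neural stem cells in their niche, was between 101 and 114 CPM in WT + ORY and between 71.1 and 82.3 CPM in KO + ORY (−0.48 ± 0.071, adjusted p = 0.000826, and −0.55 ± 0.073 under DMSO). Serpina3n, a secreted protease inhibitor, was between 1528 and 1829 CPM against 1205 and 1405 CPM (−0.39 ± 0.064, adjusted p = 0.00177). Cd14, a co-receptor for bacterial lipopolysaccharide, was between 13.7 and 20.6 CPM against 9.82 and 10.8 CPM (−0.73 ± 0.163, adjusted p = 0.0215). In all of these the groups did not overlap.

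Il1r1, the interleukin 1 receptor, was between 15.8 and 20.2 CPM in WT + ORY and between 8.31 and 13.3 CPM in KO + ORY (−0.76 ± 0.173, adjusted p = 0.0255). The chemokine Ccl2 was between 7.59 and 10.6 CPM against 3.45 and 4.72 CPM (−1.10 ± 0.254, adjusted p = 0.028), and under DMSO its difference did not pass the test (−0.44 ± 0.284). Cd14, Il1r1 and Ccl2 stayed called in 4, 3 and 1 of the 8 fits without a library, and C3, Lcn2, Vcam1, Serpina3n and Gfap in all 8. Microglial markers did not move with them: the summed level of the 17 listed was between 44.3 and 49.3 CPM in WT + ORY and between 42.1 and 49.5 CPM in KO + ORY, and Aif1 was at 0. No gene of the interferon response list was called by edgeR, DESeq2 or limma-voom (0 of 28, with 4 lower at an unadjusted p under 0.05), nor of antigen presentation (0 of 12, with 1 higher and 1 lower).

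**Figure D3:**
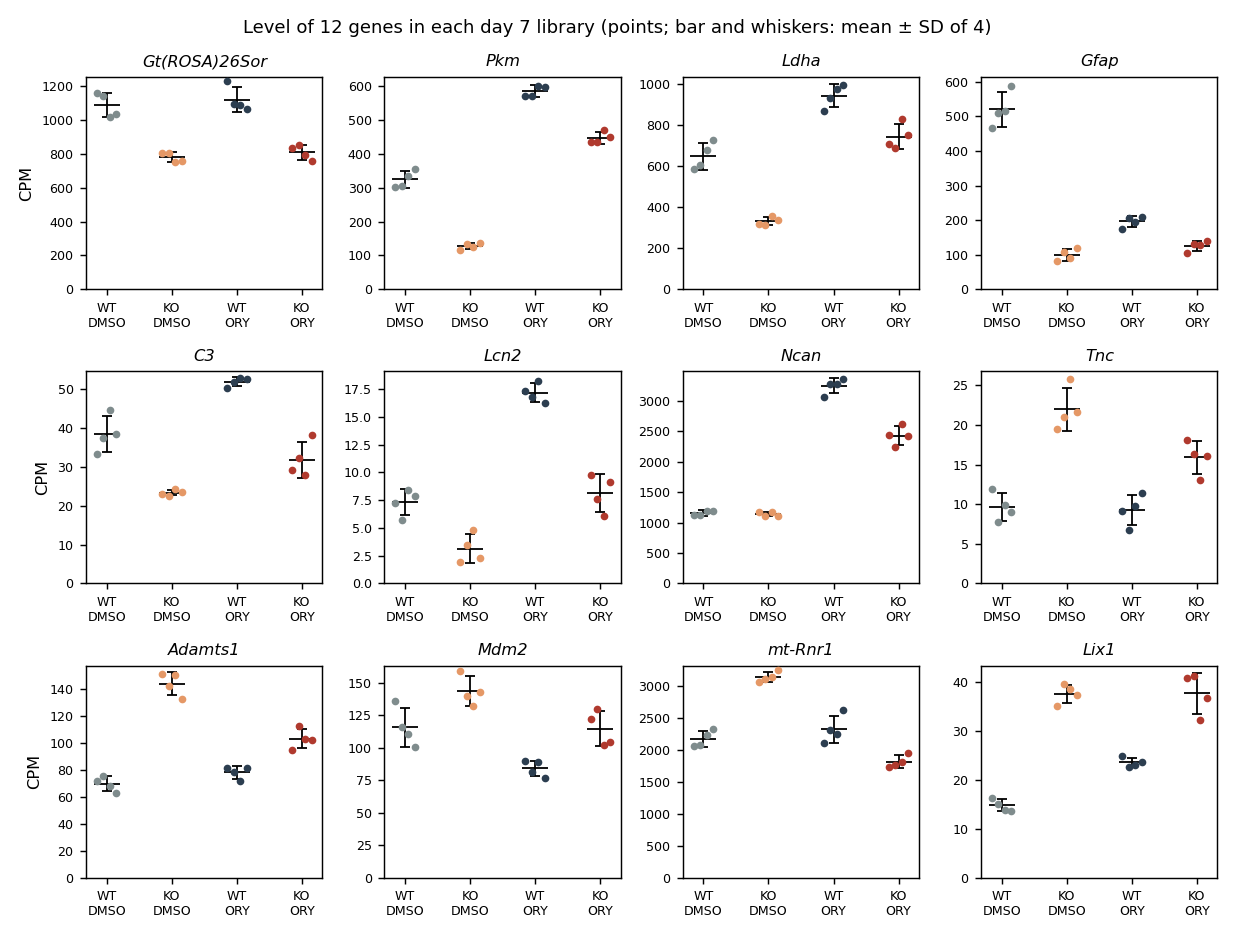
Level of 12 genes in counts-per-million (CPM, vertical axes from 0) in each of the 4 libraries of the 4 day 7 groups, with the mean and SD of each group as bar and whiskers. Gt(ROSA)26Sor, C3 and Lcn2 are lower in KO under both treatments by like ratios, Pkm, Ldha and Gfap show a smaller gap between KO and WT under ORY, Ncan differs under ORY alone, and mt-Rnr1 is lower in KO under ORY and higher under DMSO.

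Genes of the extracellular matrix moved in both directions, with 3 higher and 1 lower of 20 tested (0.561% and 0.594% of all genes). The lowest adjusted p of the comparison belonged to Ncan (chr8:70093085-70120873), which encodes neurocan, a chondroitin sulfate proteoglycan of brain matrix. Its level was 3066, 3276, 3267 and 3357 CPM in WT + ORY and 2437, 2235, 2612 and 2421 CPM in KO + ORY, a fall of 25.2% with no overlap (−0.42 ± 0.048, adjusted p = 5.07e-05). Under DMSO it was 1121, 1115, 1189 and 1195 CPM in WT and 1168, 1109, 1173 and 1108 CPM in KO (−0.02 ± 0.048, adjusted p = 0.786), and the effects differed (−0.40 ± 0.068, adjusted p = 0.000132). All ORY libraries, KO and WT, were thus far above the DMSO libraries for Ncan, and at day 7 the genotypes separated only there.

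Tnc (chr4:63959785-64047015) encodes tenascin C, a matrix protein of the stem cell niche. It was 9.09, 6.81, 9.76 and 11.4 CPM in WT + ORY and 18.1, 16.3, 13.1 and 16.1 CPM in KO + ORY (0.75 ± 0.167, adjusted p = 0.0215), with a rise of 1.21 ± 0.159 under DMSO. Adamts1, a metalloprotease that cleaves such proteoglycans, was 81.3, 78.0, 71.6 and 81.2 CPM against 94.9, 112, 103 and 102 CPM (0.40 ± 0.077, adjusted p = 0.00666). Its rise was larger under DMSO (1.04 ± 0.076, interaction −0.64 ± 0.108, adjusted p = 0.000114). Sparcl1, a secreted matrix protein of astrocytes, was between 1265 and 1368 CPM against 1482 and 1614 CPM (0.23 ± 0.046, adjusted p = 0.00713), did not differ detectably under DMSO (−0.06 ± 0.045) and passed the interaction test (0.29 ± 0.064, adjusted p = 0.00218).

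Outside that list, 3 further genes of the matrix were lower. Bmp1, a protease that matures procollagen, was between 135 and 202 CPM in WT + ORY and between 107 and 126 CPM in KO + ORY (−0.55 ± 0.108, adjusted p = 0.00713). Col6a1, a chain of collagen VI, was between 18.2 and 26.7 CPM against 9.66 and 16.1 CPM (−0.74 ± 0.171, adjusted p = 0.0267). Ecm1, extracellular matrix protein 1, was between 38.1 and 51.5 CPM against 23.2 and 37.4 CPM (−0.55 ± 0.128, adjusted p = 0.0267). Tnc, Col6a1 and Ecm1 each stayed called in 3 of the 8 fits without a library, and Ncan, Adamts1, Sparcl1 and Bmp1 in all 8.

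Mitosis genes drive the separation of chromosomes and are silent in resting cells. Of 38 mitosis genes tested, 4 fell and none rose (0.594% and 0.561% of all genes). The log2 fold change was below 0 in 35 of the 38 (51.2% of all genes). The median was −0.59, the lowest of the lists with at least 9 genes tested. The summed level of the 38 was between 337 and 366 CPM in WT + ORY and between 254 and 275 CPM in KO + ORY, groups that did not overlap. Under DMSO it was between 258 and 268 CPM in WT and between 197 and 250 CPM in KO. There 12 members were lower and 1 higher (19.1% and 16.9% of all genes), with a median of −0.46. In bulk samples fewer cells of a kind and less RNA per cell cannot be told apart. With the close KO + ORY libraries summed, 1 of the 38 was called. DNA replication genes had a median of 0.03, and none of 35 was called by edgeR or limma-voom (4 higher and 2 lower at an unadjusted p under 0.05, 1 higher by DESeq2).

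Kif2c (chr4:117159639-117182639), a kinesin that frees wrongly attached chromosomes, had 29, 18, 20 and 41 counts in WT + ORY and 5, 4, 1 and 5 counts in KO + ORY, or between 3.10 and 5.10 CPM against 0.173 and 0.944 CPM (−2.93 ± 0.497, adjusted p = 0.00232). Pbk, a mitotic kinase, was between 10.1 and 14.3 CPM against 4.33 and 6.04 CPM (−1.27 ± 0.264, adjusted p = 0.0129). Hmmr, a spindle protein, was between 2.86 and 6.86 CPM against 0.633 and 1.70 CPM (−1.92 ± 0.402, adjusted p = 0.0129). In these 3 genes the groups did not overlap, and Kif2c stayed called whichever library was left out, Pbk and Hmmr in 6 of the 8 fits.

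Kif20b, a kinesin of the midbody, was between 8.46 and 12.3 CPM in WT + ORY and between 4.31 and 8.68 CPM in KO + ORY, so the groups overlapped (−0.80 ± 0.201, adjusted p = 0.0441). It was the one of these genes that passed the interaction test (−1.13 ± 0.276, adjusted p = 0.00501), and under DMSO its value was 0.32 ± 0.189. It stayed called in 2 of the 8 fits without a library. The interaction of Hmmr was of like size but less precise (−1.17 ± 0.583, adjusted p = 0.175). That of Kif2c had an SE of 1.53, so a difference between treatments could not be judged there.

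Targets of p53 are known to arrest or eliminate damaged cells. Of 29 tested, 2 rose and none fell (0.561% and 0.594% of all genes). The log2 fold change was above 0 in 24 (48.8% of all genes), and the median was 0.16. The summed level was between 2486 and 2765 CPM in WT + ORY and between 2881 and 3105 CPM in KO + ORY, whereas under DMSO the groups overlapped (2893 to 3257 CPM in WT, 2969 to 3277 CPM in KO). Under DMSO 3 members were higher and 6 lower, beside 16.9% and 19.1% of all genes. With the close KO + ORY libraries summed, none of the 29 was called by edgeR, and without this summing 9 were higher at an unadjusted p under 0.05 and DESeq2 called 5. Mdm2 (chr10:117688875-117710758), the ubiquitin ligase that removes p53, was 89.5, 81.4, 88.8 and 77.0 CPM in WT + ORY and 122, 130, 102 and 104 CPM in KO + ORY (0.45 ± 0.093, adjusted p = 0.0129). Ccng1, cyclin G1, was 492, 434, 434 and 391.7 CPM against 618, 609, 507 and 547 CPM (0.38 ± 0.081, adjusted p = 0.0154). Neither passed the interaction test, and they stayed called in 4 and 3 of the 8 fits without a library.

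Some transcripts of the mitochondrial genome changed, in both directions. Of 7 mitochondrial mRNAs tested, 2 rose and none fell (0.561% and 0.594% of all genes). The mRNA of cytochrome b, mt-Cytb, was 21140, 22440, 21980 and 22430 CPM in WT + ORY and 23920, 24300, 24810 and 25360 CPM in KO + ORY (0.16 ± 0.030, adjusted p = 0.00604). The complex I subunit mt-Nd1 was between 5275 and 6363 CPM against 6531 and 7208 CPM (0.23 ± 0.052, adjusted p = 0.0266). With correction for GC content and length neither was called (adjusted p = 0.308 and 0.321), and with library totals alone neither was (adjusted p = 0.0765 and 0.0997). Of 56 nuclear genes of oxidative phosphorylation 1 rose by edgeR and limma-voom and 5 by DESeq2. The one called by edgeR was Cycs, the electron carrier cytochrome c, with 106 to 127 CPM against 140 to 163 CPM (0.35 ± 0.072, adjusted p = 0.0129, and 0.99 ± 0.071 under DMSO).

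The 12S ribosomal RNA mt-Rnr1 (chrM:70-1024) was 2108, 2314, 2248 and 2618 CPM in WT + ORY and 1730, 1759, 1816 and 1957 CPM in KO + ORY, without overlap (−0.35 ± 0.056, adjusted p = 0.00131). Under DMSO it was 2064, 2079, 2233 and 2324 CPM in WT and 3064, 3108, 3140 and 3243 CPM in KO, a rise of 0.53 ± 0.056 (interaction −0.88 ± 0.080, adjusted p = 9.99e-09). The 16S ribosomal RNA mt-Rnr2 fell by 0.16 ± 0.033 under ORY and rose by 0.51 ± 0.033 under DMSO. Transcripts that collect ribosomal RNA reads held 1.54% to 1.71% of counts in WT + ORY and 1.32% to 1.41% in KO + ORY. This share includes mt-Rnr1 and mt-Rnr2 themselves, so it is no separate measure. Of its other tested members, Gm42418 (−0.26 ± 0.089), Rn7sk (−0.18 ± 0.225) and Lars2 (0.07 ± 0.059) did not pass the test under ORY. The part of library preparation in these values was not tested.

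Neural stem cell genes moved in both directions. Of 31 genes of neural stem cells and radial glia 2 rose, Id2 and Sparcl1, and 1 fell, Gfap (0.561% and 0.594% of all genes). Under DMSO 14 rose and 7 fell, beside 16.9% and 19.1% of all genes. Id2, a target of BMP signalling that blocks neuronal transcription factors, was 1771, 1726, 1726 and 1594 CPM in WT + ORY and 2005, 2068, 1919 and 1954 CPM in KO + ORY (0.22 ± 0.047, adjusted p = 0.0144). It was the 1 called by edgeR of 14 BMP targets tested, where DESeq2 and limma-voom each called 1 higher and 1 lower and Id3 was just outside the threshold of edgeR (−0.36 ± 0.094, adjusted p = 0.0552). None of 11 Notch pathway genes was called by edgeR, DESeq2 or limma-voom (1 higher at an unadjusted p under 0.05).

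Lix1 was between 22.7 and 24.9 CPM in WT + ORY and between 32.1 and 41.1 CPM in KO + ORY (0.68 ± 0.104, adjusted p = 0.000997), with a larger rise of 1.34 ± 0.106 under DMSO (interaction −0.66 ± 0.148, adjusted p = 0.00225). It stayed called in all 8 fits without a library.

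Antioxidant genes gave 2 rises among 27 tested (0.561% of all genes rose). Their summed level was between 10697 and 11590 CPM in WT + ORY and between 10331 and 11247 CPM in KO + ORY, groups that overlapped. Under DMSO it was lower in KO, between 8871 and 9589 CPM against 10629 and 11446 CPM in WT. Gclc, the rate-limiting enzyme of glutathione synthesis, was 163, 163, 167 and 146 CPM in WT + ORY and 216, 208, 191 and 202 CPM in KO + ORY (0.35 ± 0.067, adjusted p = 0.00604). Prdx1, a peroxiredoxin, was between 1471 and 1496 CPM against 1631 and 1699 CPM (0.17 ± 0.040, adjusted p = 0.0305), and stayed called in 1 of the 8 fits without a library. The endoplasmic reticulum chaperone gene Canx, for calnexin, was between 2312 and 2602 CPM against 2834 and 3008 CPM (0.24 ± 0.044, adjusted p = 0.00604), and its rise of 1.15 ± 0.045 under DMSO was larger (interaction −0.92 ± 0.063, adjusted p = 4.63e-11).

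Gpr155 and Serpinf1 were, like Ncan, called under ORY and not under DMSO at day 7, but all 3 were called in untreated cultures at other days. Gpr155, a cholesterol-sensing protein of the lysosome, was 11.5, 10.9, 8.83 and 11.2 CPM in WT + ORY and 19.25, 18.93, 17.95 and 20.02 CPM in KO + ORY (0.84 ± 0.161, adjusted p = 0.00625), against −0.35 ± 0.158 under DMSO (interaction 1.19 ± 0.226, adjusted p = 0.000408). Serpinf1, the secreted factor PEDF, was between 110 and 122 CPM against 79.1 and 93.5 CPM (−0.43 ± 0.082, adjusted p = 0.00604) and 0.19 ± 0.086 under DMSO (interaction adjusted p = 0.000463). It stands in the list of fibroblast markers, whose summed level was between 212 and 260 CPM in WT + ORY and between 168 and 206 CPM in KO + ORY with Col1a1 and Dcn at 0.

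Psat1, an enzyme of serine synthesis, was 249, 242, 253 and 241 CPM in WT + ORY and 306, 302, 290 and 293 CPM in KO + ORY (0.28 ± 0.053, adjusted p = 0.00666). Under DMSO its value was −0.03 ± 0.053, and the effects differed (0.30 ± 0.075, adjusted p = 0.0051). Phc3, a Polycomb protein, Specc1, a cytospin, and Elovl7, a fatty acid elongase, also passed this test and the interaction test, with log2 fold changes under ORY of 0.38 ± 0.088, 0.49 ± 0.125 and −0.69 ± 0.158, and stayed called in 3, 1 and 1 of the 8 fits without a library.

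Of the 9 genes called in opposite directions, Prdx6 had the lowest adjusted p after mt-Rnr1. It encodes a peroxiredoxin abundant in astrocytes and was 16740, 17320, 17940 and 17960 CPM in WT + ORY and 19900, 19150, 21520 and 20560 CPM in KO + ORY (0.21 ± 0.038, adjusted p = 0.00355), whereas it fell by 0.40 ± 0.038 under DMSO. Ppt1, a lysosomal thioesterase, was between 741 and 789 CPM against 846 and 906 CPM (0.20 ± 0.049, adjusted p = 0.0347) and fell by 0.40 ± 0.049 under DMSO. It was the 1 called by edgeR of 37 lysosome genes (1 higher by DESeq2, 1 higher and 1 lower by limma-voom). Of these 37 genes 3 rose and 19 fell under DMSO, beside 16.9% and 19.1% of all genes. Ncoa3, a coactivator of nuclear receptors, was between 23.6 and 27.7 CPM against 16.8 and 22.1 CPM (−0.48 ± 0.119, adjusted p = 0.0441) and rose by 0.52 ± 0.111 under DMSO. Ppt1 stayed called in 1 and Ncoa3 in 2 of the 8 fits without a library, and Prdx6 in all 8.

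Some of the largest KO effects under DMSO had no detectable counterpart under ORY. Set, a histone chaperone, was 339, 372, 362 and 364 CPM in WT + DMSO and 951, 912, 951 and 931 CPM in KO + DMSO, but 316, 319, 309 and 317 CPM in WT + ORY and 342, 316, 343 and 333 CPM in KO + ORY (0.08 ± 0.050, adjusted p = 0.49). Lars2, a mitochondrial leucyl-tRNA synthetase whose locus also collects ribosomal RNA reads, fell by 2.32 ± 0.063 under DMSO and was between 1445 and 1767 CPM against 1553 and 1734 CPM under ORY (0.07 ± 0.059, adjusted p = 0.653). Il33, an alarmin of astrocytes, fell by 1.86 ± 0.131 under DMSO and lay just outside the threshold under ORY, with 58.3, 40.4, 52.2 and 47.6 CPM in WT and 39.5, 37.6, 31.1 and 36.0 CPM in KO (−0.47 ± 0.121, adjusted p = 0.0516). Rgs4, a regulator of G protein signalling, kept a part of its change: it was 425, 405, 398 and 391 CPM against 319, 320, 319 and 310 CPM under ORY (−0.35 ± 0.053, adjusted p = 0.000826) and fell by 1.33 ± 0.054 under DMSO.

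**Figure D4:**
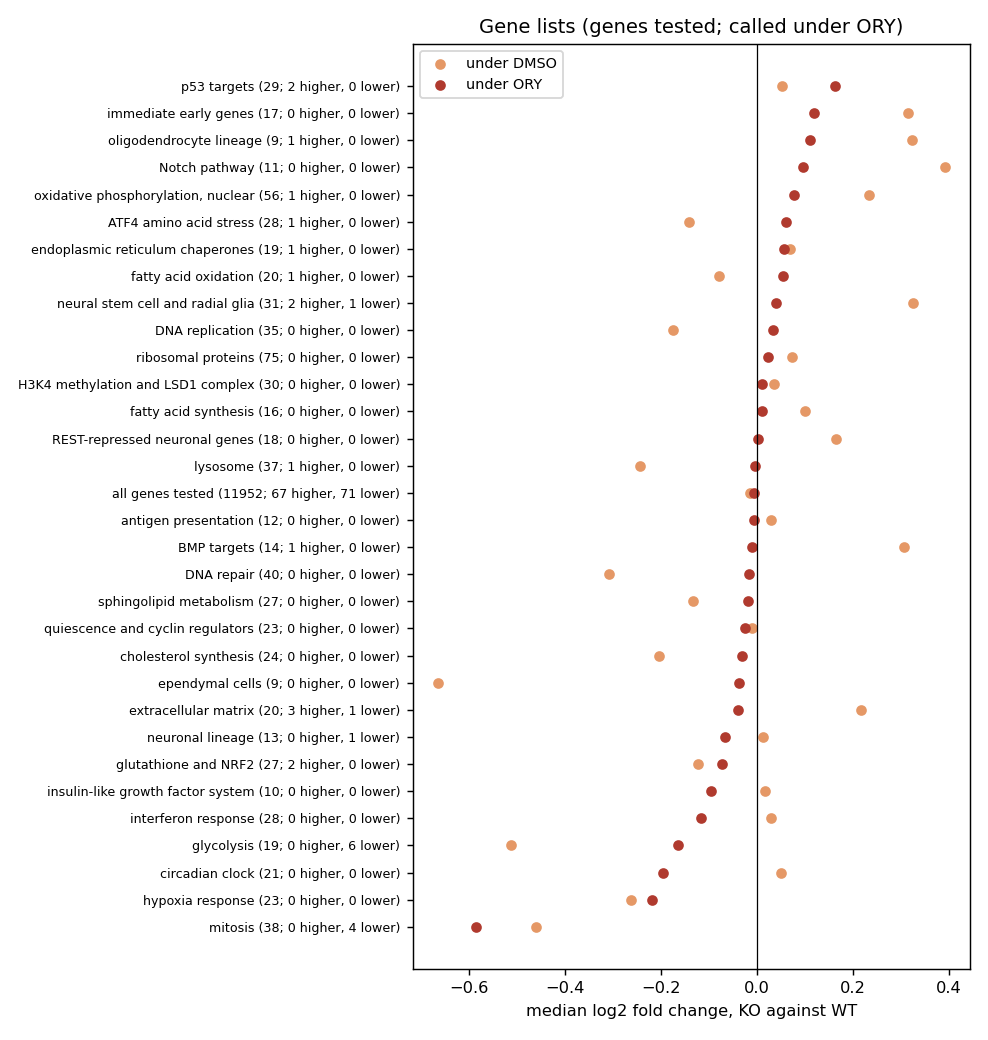
Median log2 fold change of KO against WT (horizontal axis) under ORY (red) and DMSO (orange) for the 31 gene lists with at least 9 genes tested and for all genes, with the number tested and the numbers called higher and lower under ORY. The mitosis list is lowest under ORY, at −0.59, and most other red points lie nearer to 0 than the orange ones.

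The same genotypes were compared in untreated cultures at days 4, 5, 6 and 9, in other libraries and tables normalized separately, so no test was made across tables. Of the 67 genes higher under ORY, 13.4% were also called higher at day 4 (0.927% of all genes tested there), 14.9% at day 5 (6.22%), 28.4% at day 6 (6.69%) and 37.3% at day 9 (6.35%). Of the 71 lower genes, 7.14% of the 70 tested were called lower at day 4 (0.665%), 16.9% at day 5 (8.76%), 23.9% at day 6 (6.45%) and 32.4% at day 9 (5.43%). Calls in the opposite direction numbered 4, 17, 8 and 10 of the 138 genes at days 4, 5, 6 and 9, so at day 5 they were nearly as many as the 22 in the same direction.

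Called the same way in KO in all 5 other comparisons, DMSO and the 4 untreated days, were Gt(ROSA)26Sor, Adamts1 and Tnc. The rise of Tnc was 0.87, 0.56, 0.79 and 1.144 on the log2 scale at days 4, 5, 6 and 9, and that of Adamts1 was 0.32, 0.40, 0.69 and 0.50. Gclc, Mdm2, Ccng1, Rtn4ip1 and 9530053A07Rik were called the same way in 4 of the 5, and Mdm2 rose by 0.84, 0.58 and 0.37 at days 5, 6 and 9. Pkm did not share this: its log2 fold change was 0.16, 0.04, −0.04 and −0.24 at the 4 days, and it was called lower at day 9 alone. Ncan was lower at days 6 and 9 (−0.50 and −0.20, adjusted p = 2.29e-10 and 0.00113) and higher at day 4 (0.21, adjusted p = 0.0137). Gpr155 was higher at day 6 (0.81, adjusted p = 0.00225), and Serpinf1 was lower at day 6 (−0.39, adjusted p = 0.000202) and higher at day 5 (0.44, adjusted p = 4.63e-05).

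C3 and Vcam1 were called at none of the 4 days. Lcn2 was lower at days 5 and 6 (−0.54 and −0.92, adjusted p = 0.00135 and 5.14e-06). Serpina3n was higher in KO at days 4 and 5 (0.26 and 0.27, adjusted p = 0.00461 and 0.00796), and Cd14 and Ccl2 were higher at day 9 (0.72 and 1.34, adjusted p = 0.0119 and 0.00944), the reverse of their direction under ORY. The mitochondrial mt-Rnr1 was lower at days 4, 6 and 9 (−0.31, −0.20 and −0.20, adjusted p = 0.0036, 0.0269 and 0.0291) and higher at day 5 (0.74, adjusted p = 3.42e-10), and mt-Rnr2 was called in the same directions at each of these days. Of the 138 genes, 22 were called the same way in no other comparison.

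**Figure D5:**
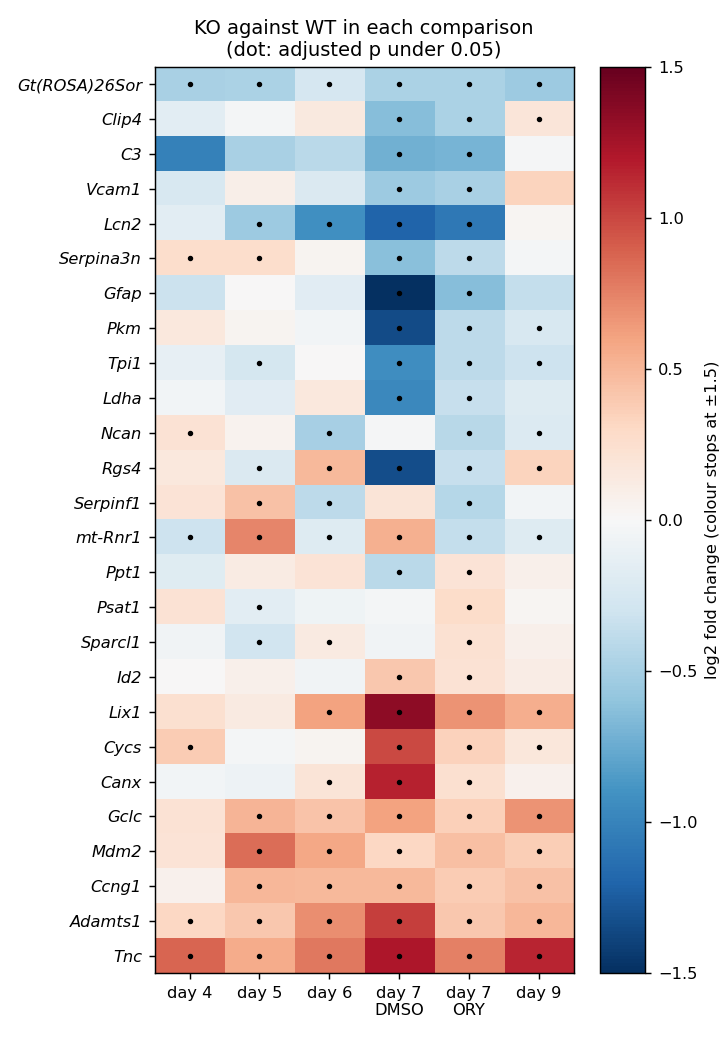
Log2 fold change of KO against WT (colour, from −1.5 in blue to 1.5 in red) of 26 named genes in the 4 untreated days and in both day 7 treatments, with a dot where the adjusted p was under 0.05. Gt(ROSA)26Sor, Adamts1 and Tnc carry a dot in every column, whereas the blue of Pkm, Tpi1, Ldha and Gfap is strongest at day 7 under DMSO.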

How the data were processed

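Libraries were made by SMART-seq2 from total RNA. The authors demultiplexed the reads (bcl2fastq 2.17.1.14), trimmed them (Trimmomatic 0.32) and aligned them to GRCm38 with STAR 2.5.2a, and the deposited values are whole-number counts of uniquely mapped reads per gene, without strand. Counts were tested with the quasi-likelihood F test of edgeR 4.0.16 (R 4.3.3, legacy form, TMM scaling) after filterByExpr (minimum count 10, minimum total 15), in 1 fit over the 16 day 7 libraries with no covariate, Benjamini-Hochberg adjustment over 11952 genes and a threshold of 0.05. The tables of day 4 and of days 5, 6 and 9 were fitted separately. Fold changes are KO over WT on the log2 scale with SE, and levels are counts-per-million (CPM) of the TMM-scaled library. The procedure was tested on simulated data. limma 3.58.1 and DESeq2 1.42.0 served as alternatives, beside other scalings, filters, a GC and length correction, thinning, a replicate block, summed libraries and leaving out each library.

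Members and gene lists were chosen with earlier results of these data known. Genes were named by rule: genes the study followed, the 20 highest and 20 lowest called under ORY (average log2 CPM 3 or more), up to 4 called members of each list, and the strongest under DMSO and by interaction (4 or more). The rule gave 88 genes, of which the text describes a part, chosen after their values were seen. Aldoa, Ccl2, Vcam1, Serpina3n, Clip4, Rgs4, Prdx6 and Ncoa3 fall outside it and were chosen after their values were seen, and other genes appear as markers, as genes at the threshold or in counts. A called gene is not reported here. Promoter windows are from RefSeq (GRCm38.p6). Depth ranged from 4265876 to 20588555 counts per library at day 7. Libraries of equal number deviated together at days 6 and 9 (every correlation over 0.1, lowest 0.112 and 0.119, a pairing taken from the data), and not in every pair of the other comparisons.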

Additional observations from a re-analysis of the deposited data

Results flagged for a closer look

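Among 112 groups of 4 libraries tested for a library far from the others, 3 had one, where chance gives about 1 in 20. Gt(ROSA)26Sor was highest in WT + ORY library 1 (1231 CPM against 1066 to 1094, a gap of 0.83 of the range). Clip4, which encodes a CAP-Gly domain linker, was highest in WT + ORY library 2 (200.8 CPM against 190.4 to 191.5, 0.894), and its fall of 0.47 ± 0.061 on the log2 scale in KO + ORY was called whichever library was left out. Rgs4 was lowest in KO + ORY library 4 (310 CPM against 318.8 to 319.7, 0.907).

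For 31 of 56 named genes the KO effect differed between ORY and DMSO by the interaction test of edgeR (adjusted p under 0.05), given here as the log2 effect under ORY less that under DMSO. Among glycolysis genes the difference was 0.953 for Pkm, 0.699 for Aldoa, 0.627 for Ldha, 0.543 for Tpi1, 0.391 for Gapdh and 0.319 for Pgk1, so each KO effect was nearer to 0 under ORY. It was 1.75 for Gfap, 0.98 for Rgs4, 0.59 for Bhlhe40, 0.597 for Ecm1, 1.39 for Il33 and 2.39 for Lars2, which also fell less or did not pass the test under ORY. It was −1.3 for Set, −0.917 for Canx, −0.645 for Cycs, −0.64 for Adamts1 and −0.663 for Lix1, all higher in KO + DMSO and less so, or without a call, under ORY. In genes with a call under ORY and none under DMSO it was −0.399 for Ncan, −0.621 for Serpinf1, −0.651 for Elovl7, −1.13 for Kif20b, 0.289 for Sparcl1, 0.305 for Psat1, 0.391 for Phc3, 0.736 for Specc1 and 1.19 for Gpr155. In genes called in opposite directions it was 0.612 for Prdx6, 0.604 for Ppt1, −0.995 for Ncoa3, −0.884 for mt-Rnr1 and −0.675 for mt-Rnr2.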

How the results depend on the processing

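The 138 calls under ORY became 279 with no filter on low counts, 319 with DESeq2, 372 with correction for GC content and length, 299 at an adjusted p of 0.1, 34 when 1.5-fold or more was required and 30 with the close KO + ORY libraries summed. Libraries of equal number did not deviate together in every ORY pair (correlations 0.352, 0.032, 0.077 and 0.357). Library 2 correlated best with library 1 of the other group (0.305) and library 3 with library 4 (0.290). In each day 7 group the summed neuronal list was higher in libraries 1 and 2 than in libraries 3 and 4, so some variation was shared between groups. The replicate block, which gave 820 calls, the 138 included, and 765 with the GC and length correction, was not used for the main calls. The main fit had no term for such shared variation, and the count of 138 rests on that choice. Leaving out a library gave 58 to 223 calls under ORY, 3799 to 4174 under DMSO (4307 as reported), 1826 to 2132 for the interaction (2138), 90 to 172 at day 4 (182), 1352 to 1654 at day 5 (1880), 1268 to 1359 at day 6 (1649) and 1093 to 1247 at day 9 (1479). Over the members of the 40 lists, 34 calls became 53 with no filter, 52 with DESeq2, 119 with the replicate block, 70 with the GC and length correction, 123 with both, 10 with the summed libraries, 8 with at least 1.5-fold, 52 at an adjusted p of 0.1, and 20 to 43 without 1 library. When 1.5-fold or more was required, 1835 calls were left under DMSO and 1172 for the interaction. Day 4 gave 304 calls with no filter and 361 with DESeq2, and summing libraries 1 with 3 and 2 with 4 left 297, 217 and 141 at days 5, 6 and 9. Scaling by totals alone gave 1518 higher and 732 lower by the interaction (1198 and 940 as reported) and 955 higher and 852 lower at day 5 (781 and 1099). The causes were not tested, apart from the fewer libraries in the summed and left-out fits. For the named genes under ORY, 1122 alternative values kept direction and side of the threshold, 202 lost the call, 18 gained it and none changed sign. Of the list medians, 871 moved by less than the spread between libraries and 9 by more.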

Other observations

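The levels of some genes in WT cells differed between treatments, with no test made here since genotype was the contrast. Serpinf1 was between 43.2 and 56.6 CPM in WT + DMSO and between 110 and 122 CPM in WT + ORY. Lcn2 was between 5.73 and 8.46 CPM against 16.3 and 18.3 CPM, and Pbk between 2.62 and 6.70 CPM against 10.1 and 14.3 CPM. The KO effects under ORY for these genes were thus read at higher WT levels than those under DMSO.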
